A study of Mus musculus with 20 samples.

Results

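Genes grouped here as stem cell-restricted markers were followed through the m6A peak lists of mouse embryonic stem cells. The lists came from cells with and without the m6A writer or its nuclear reader. The genes were Utf1, Lin28a, Dppa2, Dppa4, Dppa5a, Fgf4, Prdm14, Nr0b1 and Zfp42. Their RNA in other cells was not measured here. These 9 genes, of 55450 annotated ones, were chosen by name, with earlier results of these data known. A peak was given to a gene when its summit, the base of highest read pile-up, lay inside the gene on the same strand (GENCODE M21 annotation, mm10 build). Each of the 9 members had a peak in at least 1 library, as did 14601 genes in all.

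N6-methyladenosine (m6A) is placed on nascent RNA by a complex whose catalytic subunit is METTL3, mostly in long exons and near stop codons. YTHDC1 is the reader protein of the nucleus and binds m6A on RNA that is still at the chromatin. In embryonic stem cells m6A is known for shortening the life of transcripts of pluripotency genes and for acting on chromatin through RNA that stays bound to it.

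The series holds RNA of the chromatin-associated fraction, depleted of ribosomal RNA and immunoprecipitated with a commercial m6A enrichment kit. The 10 immunoprecipitated libraries fall into 5 groups of 2: Mettl3 KO1, Mettl3 KO2 and their Mettl3 control, and Ythdc1 cKO and its Ythdc1 control. All groups are embryonic stem cells labelled C57BL/6 and were kept with LIF, the GSK3 inhibitor CHIR99021 and the MEK inhibitor PD0325901, so the controls carry these agents too. The labels do not say how the knockouts were made, whether KO1 and KO2 are each 1 clone, how the Ythdc1 deletion was brought about, or whether both libraries of a group stem from different cultures. The 10 input libraries were not analysed here.

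The lists held 40959 to 46735 peaks each on the main chromosomes. A list says where a peak was called, not how much of a transcript was present, so fewer transcripts and less m6A per transcript cannot be told apart. The fold enrichment of a peak is the authors' own value within its list. Folds are set side by side below as a description and are not read as a change. Mettl3 itself had no peak in either KO1 list and 1 peak in each KO2 list and each Mettl3 control list, and Ythdc1 had 7 and 6 peaks in the cKO and 7 and 7 in its controls, so the lists do not check the knockout labels. Of 10 embryonic stem cell markers 3 are members, Utf1, Dppa5a and Zfp42. The other 7 each had a peak in all 10 libraries, against 0 or 1 of 6 primitive endoderm markers, 3 or 4 of 6 primed epiblast markers and 3 of 4 neural markers. Of 10 fibroblast markers, 2 had a peak in each Mettl3 knockout library and 6 in each Mettl3 control, 3 in each cKO library and 2 in each Ythdc1 control. In KO1 and KO2 together 4 of the 6 fibroblast control regions were lost, those of Col1a1, Col1a2, Col5a2 and Lox. The part of these markers in the results on the Mettl3 lines was not tested.

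The members had 175 peaks in all. KO1 had 19 and 15, KO2 had 16 and 16, and the Mettl3 controls had 16 and 22. The Ythdc1 cKO had 13 and 14, and the Ythdc1 controls had 24 and 20. The Mettl3 groups overlapped, whereas both cKO libraries lay below both of their controls. Peaks in all genes had the same order, with 30766 and 31135 in the cKO and 35368 and 34084 in the Ythdc1 controls. The direction is thus shared by peaks in genes as a whole, though the fall was larger in proportion among the members. Member peaks averaged 13.5 in the cKO and 22 in its controls. The whole lists went the other way, with 45468 and 45599 peaks in the cKO and 43651 and 41941 in the Ythdc1 controls. The difference in size was not tested. Every member had a peak in each Ythdc1 control, and 7 of 9 had one in each cKO library and in each Mettl3 control. By the place of the summit, 81 peaks lay in coding exons, 37 in 3′ UTRs, 34 in 5′ UTRs and 23 in introns. Merged over all libraries they formed 29 sites, of which 11 had a peak in every library and 5 in 1 library. The sites are numbered within each gene, 5′ to 3′. Distances before or past a stop codon are counted from the last coding base in front of it.

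**Figure D1:**
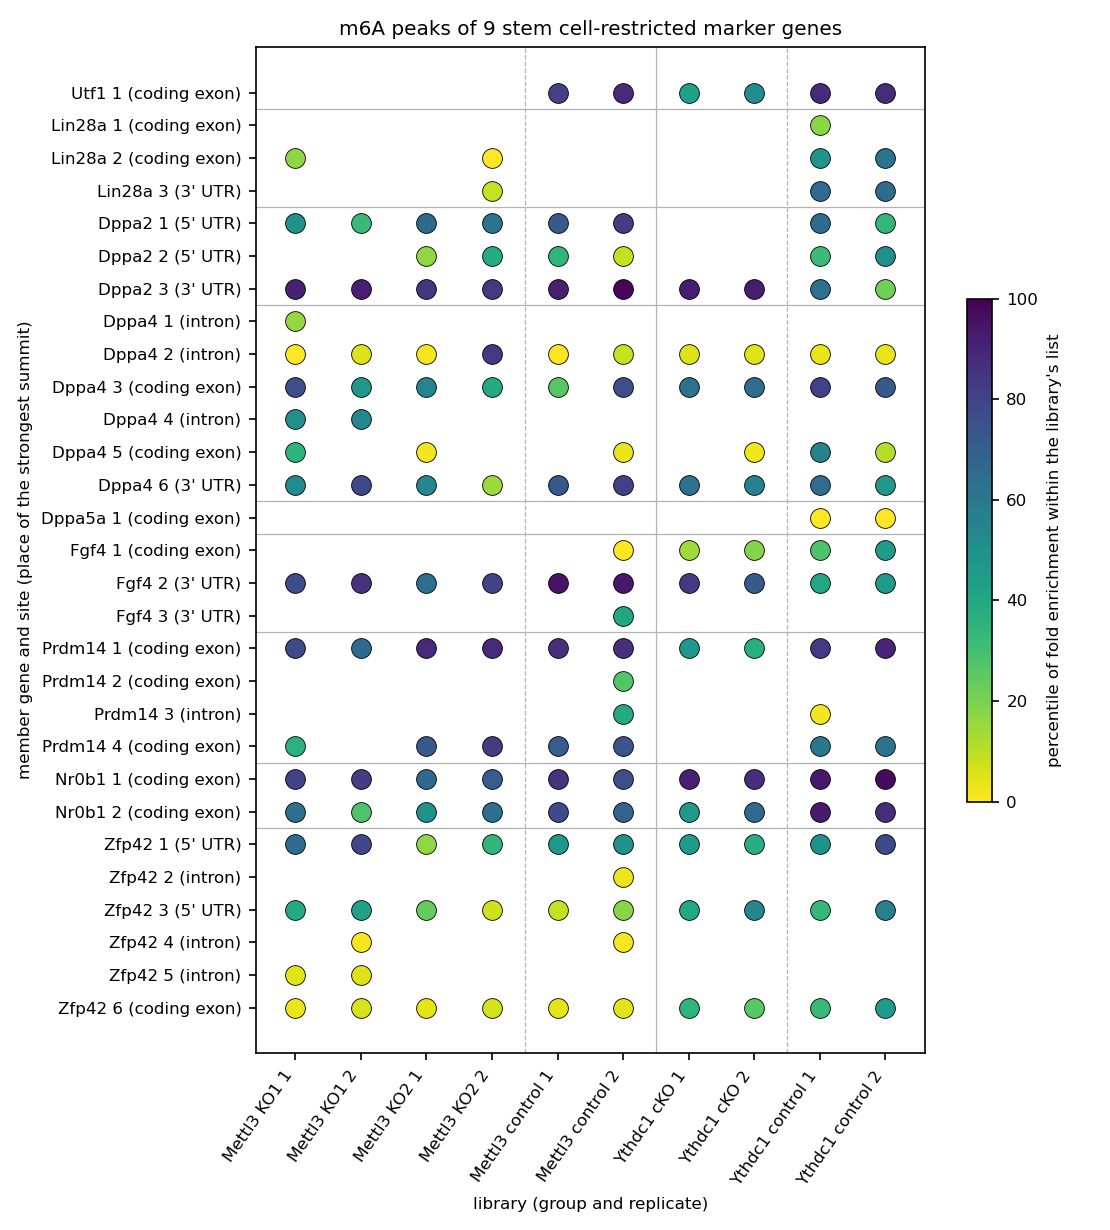
Each row is 1 of the 29 sites of the 9 members and each column 1 of the 10 libraries. A dot marks a peak, and its colour gives the percentile of the fold enrichment within that library's list (0 to 100). Utf1 has no dot in the 4 Mettl3 knockout libraries. Lin28a and Dppa5a have none in the cKO and none in the Mettl3 controls. A dot stands in every column for 11 sites.

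The bases around the summits of sites that were lost or kept are shown because METTL3 acts within a short consensus whose commonest form is GGAC. The capitals mark the GGAC nearest the summit within 50 nt on the sense strand or, where there was none, the nearest match to the wider consensus (A, G or T, then A or G, then AC, then A, C or T), which includes GGAC where A, C or T follows. The sequences are transcript sequences of GENCODE M21, 5′ to 3′, and each is 29 bases long.
Utf1 site 1, coding exon, chr7:139944119-139944147, plus strand: ctcactactgctGGACcgcaggcagactc
Lin28a site 3, 3′ UTR, chr4:134004994-134005022, minus strand: aaggcacaagagGAACTttccataccaga
Dppa2 site 1, 5′ UTR, chr16:48303978-48304006, plus strand: aaccatcagacaGGACttgtgaaaacaga
Dppa2 site 3, 3′ UTR, chr16:48318784-48318812, plus strand: aacaaaacaaacAAACAaaaacctggctg
Dppa4 site 3, coding exon, chr16:48289071-48289099, plus strand: actgagacgccaGGACagactcgtaggaa
Fgf4 site 2, 3′ UTR, chr7:144863467-144863495, plus strand: aatcatcttcttGGACctaccggatagga
Prdm14 site 4, coding exon at the stop codon, chr1:13114254-13114282, minus strand: tgaggcttcataAAACCtgctaggtcttt
Nr0b1 site 2, coding exon, chrX:86195506-86195534, plus strand: gatgtcgtcactGAACTctttttcaggcc

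Of 23 member sites with an exonic summit, 8 held GGAC within 50 nt, 13 held only the wider consensus and 2 held neither. Each site was taken at its strongest exonic summit. Zfp42 sites 1 and 3 hold the same GGAC, reached across a splice junction, so it is counted for both. Over every exonic summit of a library, not 1 per site, 48.2% to 51.3% of windows held GGAC and 90.5% to 92.8% held the wider consensus. A match is a description of the letters and not a mapped m6A site.

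For the first comparison, whether members lost peaks without METTL3, overlapping peaks of the 6 Mettl3 libraries (1 bp or more, same strand) were joined into regions. A region called in both controls was a control region. It counted as lost when no knockout library had a peak there and as kept when every one did. A region was gained when every knockout library had a peak and the controls had none. Of the 15 control regions, in 7 members, 1 was lost in KO1 and KO2 together, that of Utf1, and 12 were kept. The other 2 regions, Dppa2 site 2 and Prdm14 site 4, were absent from some knockout libraries, and no region was gained. Among all control regions inside genes, 8.96% were lost and 64.8% were kept, and 4.31% of the regions present in every knockout library were gained. With both controls required, the single lost region of 15 is near that background. Utf1 was also the only member that lost every control region, as did 4.85% of all genes with one. This reading rests on both controls: without the first Mettl3 control library 1 control sufficed, and 6 of 22 member regions were lost, against 13.7% over all genes. Without the second control library 2 of 16 were lost, against 12.3%.

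Taken line by line against the same controls, KO1 lost 2 of the 15 regions, those of Utf1 and Dppa2 site 2, and kept 12. Across genes KO1 lost 16.8% and kept 72.5%. Of 14 member regions present in both KO1 libraries 2 were gained, 1 in an intron of Dppa4 and 1 in an intron of Zfp42, against 12.9% over all genes. KO2 lost the Utf1 region, kept the other 14 and gained none, against 14.7% lost, 75.1% kept and 12.9% gained over all genes. Without the first control library 7 of 22 member regions were lost in each line, against 22.4% over all genes in KO1 and 21.4% in KO2. Without the second control library 3 of 16 were lost in KO1, against 20.8%, and 2 of 16 in KO2, against 19.8%. Without the second KO1 library 4 of 18 were gained in KO1, against 20.8%. Without the first KO2 library 2 of 16 were gained in KO2, both in Lin28a, against 17.8%. The difference between the lines was not tested.

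In the second comparison, which asks the same of the reader, the Ythdc1 cKO had lost 6 of 20 control regions, kept 13 and gained none. The lost regions were Lin28a sites 2 and 3, Dppa2 sites 1 and 2, Dppa5a site 1 and Prdm14 site 4. Over all genes 18% of control regions were lost, 71.8% were kept and 15.6% of regions present in both cKO libraries were gained. Lin28a and Dppa5a lost every control region, as did 8.59% of all genes with one. The members' share of losses lay above the background, but it rests on 20 regions of 9 genes and regions of a gene share a transcript. Of the lost regions, both of Lin28a and that of Dppa5a also had no peak in either Mettl3 control. The Dppa5a peaks stood at percentiles 0.079 and 0.012 of the Ythdc1 control lists. Without the second Ythdc1 control library, 10 of 24 member regions counted as lost, against 26.6% over all genes. No test was run, since the members were chosen with earlier results of these data known and the libraries were few. The smallest two-sided p that an exact permutation test allows is 0.333 here and 0.0667 for 4 knockout against 2 control libraries.

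**Figure D2:**
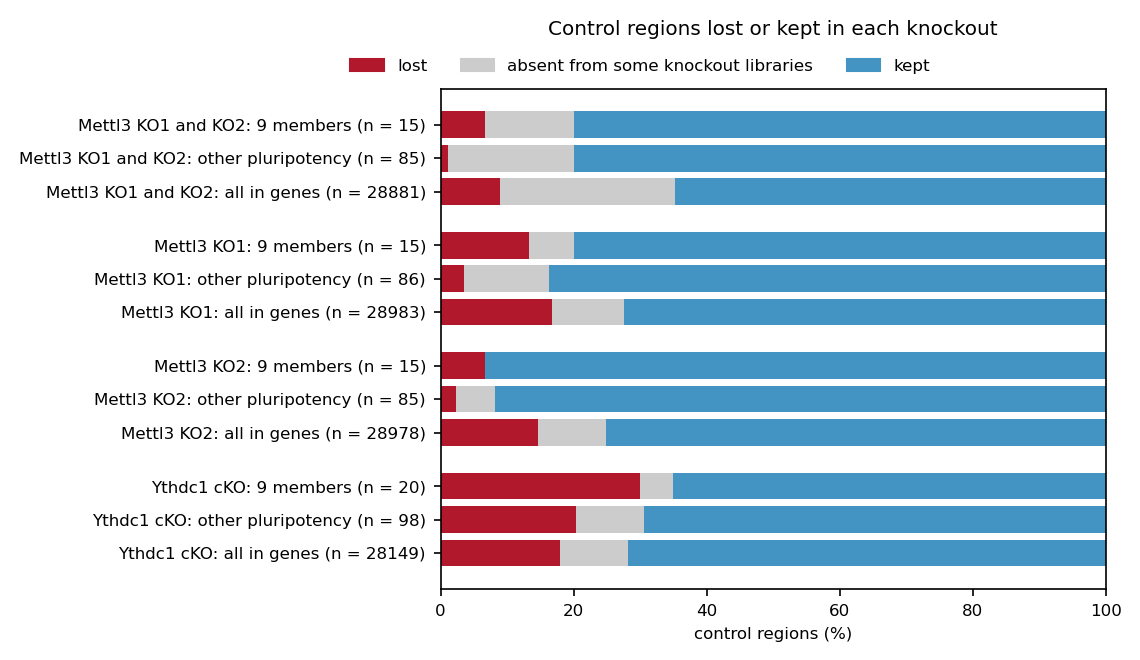
Bars give the percent of control regions lost (red), absent from some knockout libraries (grey) and kept (blue) for the 9 members, for 29 other pluripotency genes and for all regions in genes, with the number of control regions as n. In the Ythdc1 cKO the members have 6 of 20 regions in red, and in KO1 and KO2 together 1 of 15.

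How often a control region was lost differed with the fold percentile of its peaks in the controls. All control regions in genes were put into quintiles by the lower percentile of their fold in the 2 controls. In KO1 and KO2 together 15.2% of the lowest quintile and 0.311% of the highest quintile were lost. The second lowest quintile lost 16.1%, so the share did not fall at every step. The Utf1 region lay in the highest quintile, where 18 of 5786 regions were lost. In the Ythdc1 comparison 34.3% of the lowest quintile and 1.44% of the highest quintile were lost. There the lost regions of Dppa5a, Dppa2 and Lin28a were spread over the quintiles below the highest. That of Dppa5a lay in the lowest, both of Dppa2 in the next, and those of Lin28a site 3 and Prdm14 in the second highest, where 7.95% were lost.

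Utf1, a chromatin-bound protein of undifferentiated cells, lies at chr7:139943789-139945112 on the plus strand and has 2 exons. Its one site was in the first coding exon, 373 to 475 bp from the gene start. No KO1 or KO2 library had a peak there, and the Mettl3 controls had folds of 7.65 and 8.82. From the deposited fold and p-value these control peaks had 132 and 168 reads at the summit over a background of 16.4 and 18.2 reads, which is the commonest plus-strand background of those lists. The weakest peaks listed at that level in the 4 knockout libraries had 34 or 35 reads, so a pile-up of the control's size over such a background would have been listed. In the Ythdc1 cKO the site was present with folds of 4.25 and 4.72 and widths of 253 and 258 bp, and in the Ythdc1 controls with folds of 8.63 and 9.05 and widths of 1003 and 641 bp. The pile-up was 100 and 99 reads in the cKO and 161 and 150 reads in its controls, so the groups did not overlap in fold, width or reads.

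Dppa2 and Dppa4, neighbouring genes on chromosome 16, encode DNA-binding proteins that act together on early embryonic genes. Dppa2 (chr16:48303908-48319723) had 3 sites. Site 1, in the first exon and 128 to 131 bp from the gene start, had folds of 4.397 and 3.66 in KO1, 5.67 and 5.46 in KO2, and 6.56 and 7.62 in the Mettl3 controls. It had no peak in either cKO library, and folds of 5.54 and 3.90 in the Ythdc1 controls. Site 2, in the second exon, was likewise absent from both cKO libraries and from both KO1 libraries, while KO2 had folds of 3.06 and 4.16, the Mettl3 controls 4.03 and 2.71, and the Ythdc1 controls 3.68 and 4.67.

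The strong site of Dppa2 was site 3, at the stop codon, with a peak in every library and the summit past the stop codon in all but the second Ythdc1 control. Its fold was 9.10 and 9.18 in KO1, 8.005 and 7.98 in KO2, and 10.4 and 14.1 in the Mettl3 controls. In the cKO it was 10.5 and 10.5, and in the Ythdc1 controls 5.27 and 3.34. The cKO libraries had 220 and 211 reads over a background of 20.03 and 19.3, and their controls 126 and 131 reads over 23.1 and 38.5. At this 3′ site the cKO values therefore lay above those of the controls, while both 5′ UTR sites of the same gene had no cKO peak.

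Dppa4 (chr16:48283733-48294237) had 6 sites, and 3 of them, in or beside 2 coding exons and in the 3′ UTR, had a peak in all 10 libraries. At coding exon site 3 the fold ran from 4.23 to 6.32 over the 4 Mettl3 knockout libraries and was 3.68 and 6.65 in the controls, so the groups overlapped. It was 5.44 and 5.74 in the cKO, and 7.23 and 6.41 in the Ythdc1 controls. At the 3′ UTR site 6, 221 to 286 nt past the stop codon, KO1 had 4.53 and 6.54, KO2 had 4.83 and 3.04, and the Mettl3 controls had 6.63 and 7.37. The intron site 4, called in KO1 only, had folds of 4.42 and 4.52.

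Prdm14 (chr1:13113457-13127163, minus strand) encodes a PR-domain protein that restrains differentiation signals in naive cells and specifies germ cells. Its main site had a peak in every library, over the second exon and, in all libraries but those of the cKO, the first intron. Its highest fold was 6.51 and 5.35 in KO1, 8.95 and 9.23 in KO2, and 8.82 and 8.35 in the Mettl3 controls. KO1 lay below the controls and KO2 above them. In the cKO the fold was 4.45 and 4.03 and the peak 466 and 527 bp wide, and in the Ythdc1 controls the fold was 7.53 and 9.55 and the peak 1321 and 1315 bp wide. The cKO peaks covered the second exon but not the intron, as the map of the gene shows. The site at the stop codon had a fold of 3.83 in 1 KO1 library and none in the other, 6.26 and 7.80 in KO2, and 6.39 and 6.36 in the Mettl3 controls. It was absent from both cKO libraries and had 5.10 and 5.41 in the Ythdc1 controls.

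**Figure D3:**
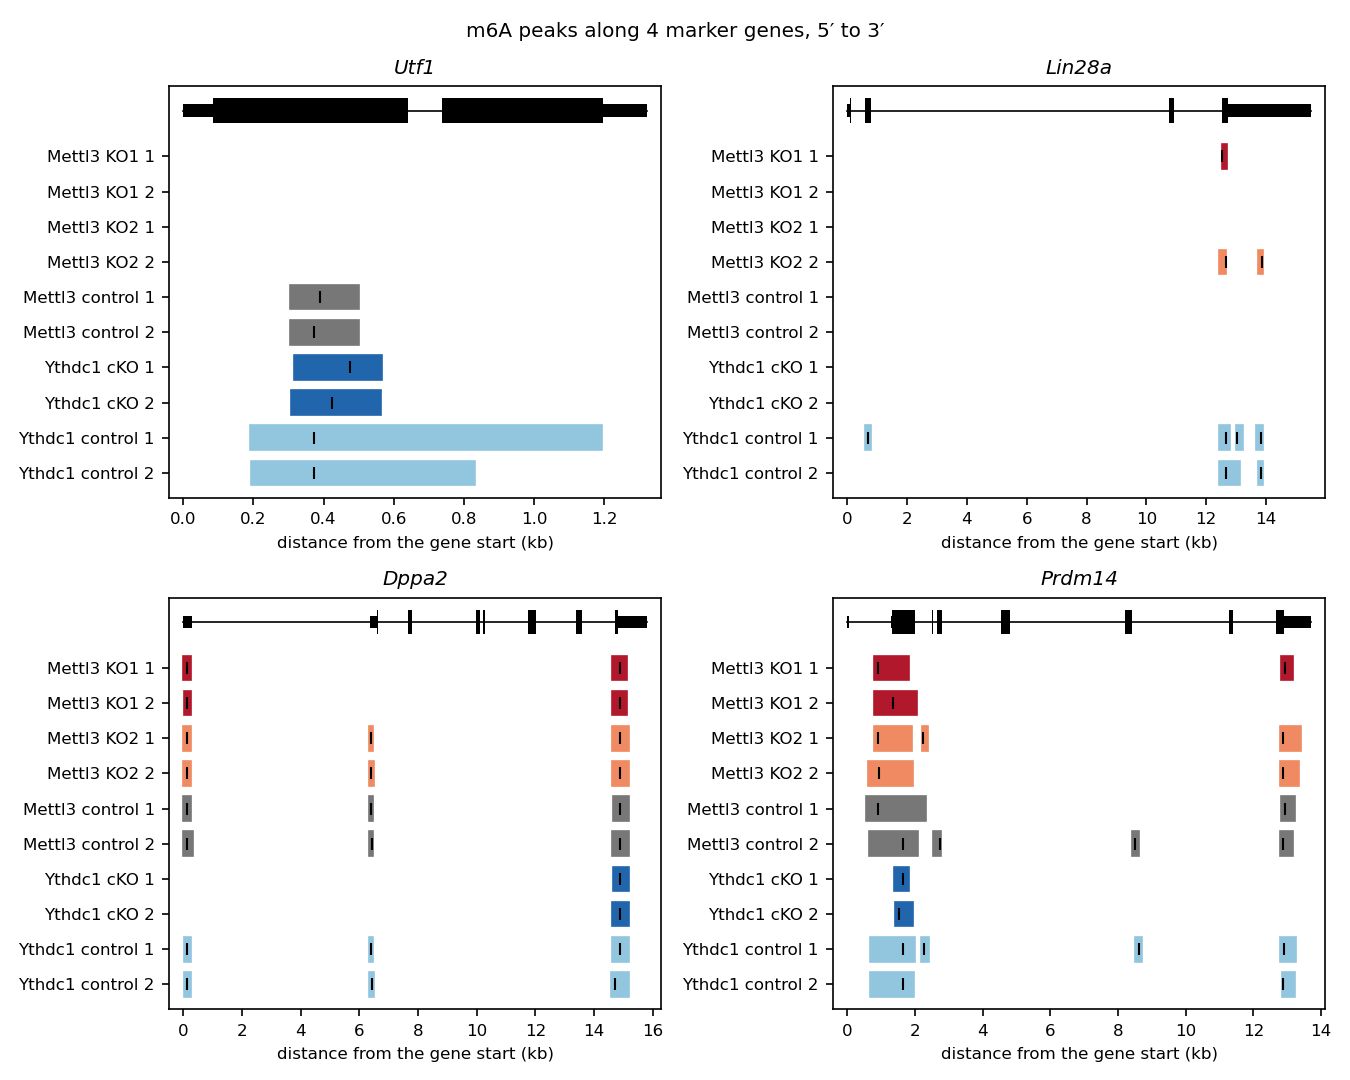
Peaks (boxes) and summits (ticks) along Utf1, Lin28a, Dppa2 and Prdm14, in kb from the gene start, with 1 row per library and the transcript on top (thick, coding; thin, UTR). The Utf1 rows of KO1 and KO2 are empty. In the cKO rows the 5′ UTR peaks of Dppa2, the stop codon peak of Prdm14 and all peaks of Lin28a are absent. The Lin28a rows of the Mettl3 controls are also empty.

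Nr0b1 (chrX:86191764-86195947), an orphan nuclear receptor without a DNA-binding domain that binds other pluripotency factors, kept both of its sites in every library. Site 1 lies in the first coding exon. Its highest fold was 6.83 and 7.09 in KO1, 5.68 and 6.28 in KO2, and 8.69 and 6.67 in the Mettl3 controls, and these values overlap between KO1 and the controls. It was 10.03 and 8.98 in the cKO, and 10.5 and 13.4 in the Ythdc1 controls. Site 2, 57 to 84 nt before the stop codon, had 121 and 117 reads in the cKO and 321 and 307 reads in the Ythdc1 controls, against 89 and 89 in KO1, 208 and 201 in KO2, and 124 and 112 in the Mettl3 controls. Its fold was 5.21 and 3.48 in KO1, 4.57 and 5.65 in KO2, and 7.19 and 5.90 in the Mettl3 controls. KO1 and KO2 lay on either side of the Mettl3 controls in reads and both below them in fold. The background was 44.7 and 34.7 reads in KO2 and 16.4 and 18.2 in the Mettl3 controls. The fold was 4.43 and 5.82 in the cKO, and 10.3 and 8.83 in the Ythdc1 controls.

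Zfp42 (chr8:43295063-43306980, minus strand), the zinc finger protein REX1 that marks naive stem cells, had 3 sites in every library, 2 in or beside 5′ UTR exons and 1 across its coding exon. The coding site combined the highest read pile-ups of any member with low folds. The first KO1 library had 2 peaks there, of 367 reads over 176.0 and of 550 reads over 284.4, and the second had 569 reads over 242.1. KO2 had 681 and 662 reads over 306.1 and 261.8, and the Mettl3 controls had 570 and 572 over 240.1 and 238.1. The cKO had 448 and 458 reads over 114.3 and 126.9, and the Ythdc1 controls 420 and 439 over 112.4 and 98.9. The backgrounds of the Mettl3 lines were all above those of the Ythdc1 lines. The highest fold per library ran from 2.08 to 2.52 in KO1 and KO2 and was 2.37 and 2.396 in the Mettl3 controls, and it was 3.89 and 3.59 in the cKO and 3.71 and 4.404 in the Ythdc1 controls, so the groups overlapped in both comparisons. The annotation also holds the pseudogene Zfp42-ps1, and how reads matching both were treated is not known here.

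**Figure D4:**
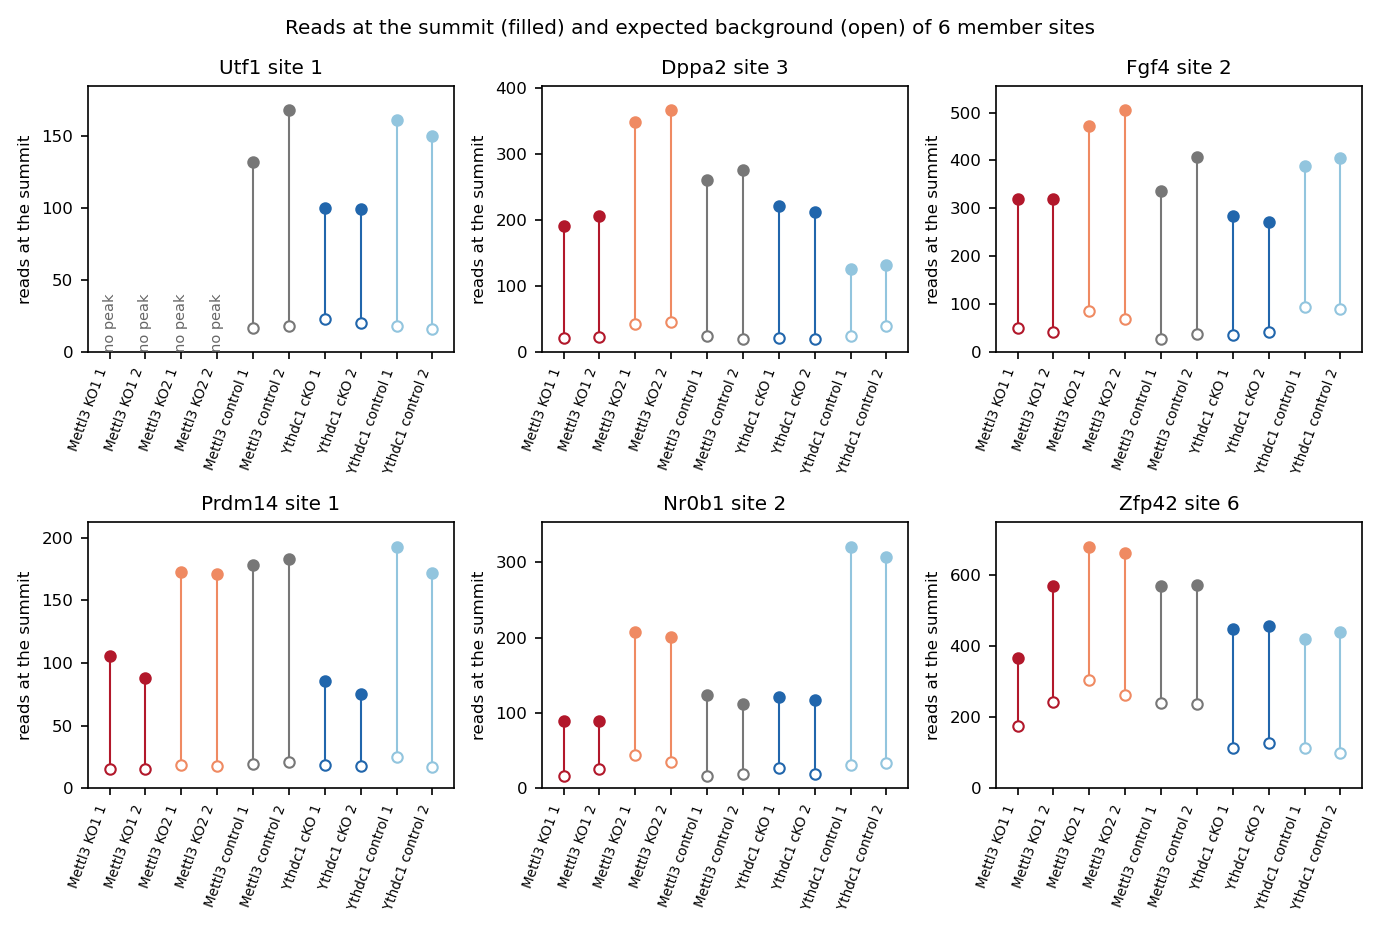
Reads at the summit (filled) and expected background reads (open) for 6 member sites in every library, solved from the deposited fold and p-value. Where a library has more than 1 peak at a site, the one with the highest fold is shown. Utf1 has no peak in KO1 and KO2, Dppa2 site 3 has 220 and 211 reads in the cKO and 126 and 131 in its controls, and Zfp42 has the highest backgrounds.

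Lin28a (chr4:134003330-134018841, minus strand) encodes the RNA-binding protein that blocks let-7 maturation. Its last exon had a site at the stop codon and one in the 3′ UTR, 1084 to 1130 nt past the stop codon. Neither cKO library had a peak in the gene. In the Ythdc1 controls the stop codon site had highest folds of 4.37 and 5.38 and the 3′ UTR site 5.53 and 5.71. The Mettl3 controls had no peak in Lin28a, whereas KO1 had 1 peak of 3.01 in its first library and KO2 had peaks of 1.57 and 2.67 in its second library. The losses in the cKO therefore concern peaks that the other control line did not have.

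Dppa5a (chr9:78367052-78368177, minus strand), a KH-domain RNA-binding protein, had a peak in the Ythdc1 controls only, with folds of 1.48 and 1.39. These had 223 and 186 reads over backgrounds of 149.9 and 133.9, and they stood at percentiles 0.079 and 0.012 of their lists. The annotation also holds Dppa5b and Dppa5c, and how reads matching several copies were treated is not given in the sources used here, so the assignment is uncertain.

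Fgf4 (chr7:144847367-144865243), the growth factor through which stem cells stimulate their own ERK signalling, had a wide 3′ UTR site in every library, 544 to 621 nt past the stop codon. Its fold was 6.37 and 7.68 in KO1, 5.47 and 7.36 in KO2, and 12.02 and 10.6 in the Mettl3 controls. It was 8.08 and 6.44 in the cKO, and 4.09 and 4.45 in the Ythdc1 controls. The knockout values lay below the controls in the Mettl3 lines and above them in the Ythdc1 lines. In reads the order differed. KO1 had 319 and 320 reads over a background of 49.2 and 40.8, and KO2 had 472 and 505 over 85.5 and 67.8. The Mettl3 controls had 336 and 406 reads over 27.0 and 37.5. The cKO had 283 and 272 reads over 34.2 and 41.4, and the Ythdc1 controls 388 and 404 reads over 94.2 and 89.97. A further site over the first exon and intron was called in no KO1 or KO2 library and in the second Mettl3 control only, with a fold of 1.71. It was called in all 4 Ythdc1 libraries, with folds of 3.00 and 3.25 in the cKO and 3.53 and 4.396 in the controls.

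The control lines were also set against each other, a comparison added after the peaks were seen. Of 20 member regions called in both Ythdc1 controls, 3 had none in either Mettl3 control, Lin28a with 2 and Dppa5a with 1, against 18.8% of all such regions in genes. Of 15 called in both Mettl3 controls, none was absent from both Ythdc1 controls, against 20.1% over all genes.

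In 29 other pluripotency genes, from a list of transcription factors, signalling and marker genes, 1 of 85 control regions was lost in KO1 and KO2 together and 68 were kept. Over all genes these shares were 8.96% and 64.8%. The lost region was in Nr5a2, a nuclear receptor that can stand in for Oct4 in reprogramming. These genes gained 4 regions, 1 each in Pou5f1, Nanog, Sall4 and Gdf3. Over all genes 4.31% of the regions present in every knockout library were gained. That base was not counted for the 29 genes, so the 2 values cannot be compared. In the cKO 20 of 98 control regions were lost and 68 were kept, near the 18% and 71.8% over all genes, so the losses named here do not set the list apart. Tcl1, Eras and Lin28b lost their only control region, Lefty1 lost 3 of 4, Fbxo15 3 of 5, Nr5a2 3 of 7, and Pou5f1, which encodes Oct4, 2 of 4. A further 5 genes lost 1 or 2 regions each. Among 10 relatives of the members, such as Prdm1 and Lin28b, 2 of 23 control regions were lost in KO1 and KO2 together. These were 1 each in Prdm1 and Prdm16. In the cKO 3 of 19 were lost, 2 in Prdm1 and 1 in Lin28b. Lin28b and Dppa3 are both relatives and among the 29 other pluripotency genes, so the regions of Lin28b are counted in each list.

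By the highest fold percentile of each gene over the 10 libraries, with 0 where there was no peak, the genes nearest to 8 of the 9 members were named as a description. Utf1 was nearest to the processed pseudogene AC148019.3 and to Gm20767, and Dppa2 to Cd55 and Lnpep. Dppa4 was nearest to Cnot1 and Xrn1, Fgf4 to Bmpr1a and Stam, Prdm14 to Spire1 and Cox11, Nr0b1 to Brpf1 and Apex2, and Zfp42 to Rpl36a-ps3 and Kdm1a. Among these members other than Dppa5a, the distance to the nearest gene ran from 10.3 percentile points for Nr0b1 to 27.0 for Fgf4 and Zfp42. For Dppa5a, whose percentiles are near 0, the nearest genes, Gm26205 and Gm27533, each had a peak in 1 library and carry little information.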

How the data were processed

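The members and gene lists were chosen with earlier results of these data known. Per the labels' protocols, ribosome-depleted RNA of the chromatin-associated fraction was fragmented, immunoprecipitated with an m6A kit and made into stranded libraries. The submitters' processing notes name Trimmomatic 0.38, CASAVA and HISAT2 2.1.0, with MACS2 as peak caller and mm10 as build. Neither the version and command of MACS2 nor its use of the inputs is given in the sources used here.

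Per the files, deposited narrowPeak lists, 1 per library and separate by strand, give for each peak the authors' display score, fold enrichment at the summit (a ratio), and the −log10 p-value and −log10 q-value. By the values they hold peaks of at least 150 bp and −log10 q of at least 2. Read totals are not in such a list, so depth is known only relatively: solving the deposited fold and −log10 p for a Poisson pile-up and background gave a whole number of reads that returns the deposited −log10 p within 0.002 for all 175 member peaks and for 100% of 1500 sampled peaks per library and strand. The commonest plus-strand background was 14.9 to 20.03 reads. Reads are not independent molecules.

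Peaks were assigned, merged and called with Python 3.11.15, numpy 2.4.6, pandas 2.3.3 and scipy 1.17.1, after tests on simulated lists. The text names all 9 members, at most 10 of the 29 other pluripotency genes with a region lost, gained or missing from 1 line (which of these was chosen after their values were seen), relatives, and for each member the 2 genes with the smallest Euclidean distance over the percentiles, except for Lin28a, for which they are not reported here. No test was run: calls are counts beside the same share over all regions in genes. Alternatives were peak assignment, list threshold and length, overlap, merging, the control rule and leaving out each library.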

Additional observations from a re-analysis of the deposited data

Results flagged for a closer look

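Peaks on the strand opposite to a member were not used in the comparisons, and 2 members had more of them in Mettl3 knockout libraries than in any Mettl3 control. Zfp42 had 4 antisense peaks in each KO2 library and 2 in each KO1 library, against 1 in each Mettl3 control. The strongest antisense peaks within Zfp42 had folds of 10.9 and 9.05 in KO2, 3.76 and 4.12 in KO1, and 3.39 and 5.74 in the Mettl3 controls. Nr0b1 had 1 antisense peak in each KO2 library, with folds of 4.86 and 3.64, against 0 in each Mettl3 control. Fgf4 went the other way, with 0 in each KO1 library, 1 and 0 in KO2 and 1 in each Mettl3 control. Of 14601 genes with a peak, 4.04% had more antisense peaks in both KO2 libraries than in either control and 4.18% had fewer, and in KO1 0.938% had more and 6.23% had fewer.

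Some members stood in opposite directions in different comparisons by the highest fold percentile within a list, with every knockout library on 1 side of both of its controls. Dppa2 differed by 33.8 percentile points in the cKO minus the Ythdc1 controls, by −3.72 in KO1 minus the Mettl3 controls and by −10.8 in KO2 minus the Mettl3 controls. The first of these compares unlike sites, since the highest value came from site 3 in the cKO, at 92.3 and 91.8, and from sites 1 and 2 in the Ythdc1 controls, at 65.9 and 50.7. At site 3 itself the Ythdc1 controls stood at 62.4 and 21.8. Fgf4 differed by 33.9 in the cKO minus the Ythdc1 controls, by −13.0 in KO1 and by −22.4 in KO2. Prdm14 differed by −44.5 in the cKO minus its controls, by −14.2 in KO1 and by 2.55 in KO2. Zfp42 differed by 24.1 in KO1 and by −19.0 in KO2, where the value of the first KO2 library came from site 3 and the others from site 1. These differences were not tested, percentiles come from lists of different lengths, and KO1 and KO2 share their controls. How many of all genes meet this rule was not counted, so it is not known whether these members stand apart.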

How the results depend on the processing

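No paired analysis was possible because the results come from no test. In KO1 and KO2 together, 1 member region was lost under every alternative but those on the controls: with a peak in at least 1 control the count was 7, and leaving out 1 library gave 1 to 6 lost, 12 to 13 kept and none gained, the 6 without the first Mettl3 control and 2 without the second. In KO1 alone, 8 were lost with a peak in at least 1 control and 1 with 40000 peaks per library, where Dppa2 site 2 was no longer a control region, and leaving out 1 library gave 2 to 7 lost and 2 to 4 gained (7 without the first control, 4 without the second KO1 library). In KO2 alone, 8 were lost with a peak in at least 1 control, and leaving out 1 library gave 1 to 7 lost and 0 to 2 gained (7 without the first control, 2 gained without the first KO2 library). In the cKO, leaving out 1 library gave 6 to 10 lost, the 10 without the second Ythdc1 control, and the other alternatives 6 to 9. With 40000 peaks per library the 6 losses in the cKO included Dppa4 site 5 in place of Dppa5a. With the looser control rule or 1 control left out, peaks of a single control count by construction, and for the other moves the cause was not tested. A peak missing from a list means only that none was called at that depth.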

Other observations

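Peaks outside the member genes were looked at within 3 kb on the same strand and on the opposite strand within each gene. A peak 2586 to 2618 bp past the annotated end of Lin28a, within the neighbouring gene Dhdds on the same strand, was called in all 10 libraries. Its fold was 10.8 and 6.74 in KO1, 5.04 and 5.40 in KO2, and 5.43 and 5.34 in the Mettl3 controls. It was 4.06 and 4.47 in the cKO, and 4.25 and 4.10 in the Ythdc1 controls. It was thus also called in the Mettl3 control and cKO libraries, which had no peak inside Lin28a.

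Opposite to the coding exon of Utf1 an antisense peak was called in both Ythdc1 cKO libraries, with folds of 9.15 and 9.59, and in both Ythdc1 controls, with 8.85 and 9.95. It was called in 1 KO1 library with 3.65 and in 1 KO2 library with 3.44, and in both Mettl3 controls with 6.39 and 5.14. The antisense peak was thus called in 2 of the 4 Mettl3 knockout libraries, none of which had a sense peak.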
